A study of Mus musculus with 42 samples.

Results

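The interferon-stimulated genes are the transcripts that cells make in answer to an interferon, and 43 of them were followed here through wounds of diabetic mice. The 43 were listed by name as known interferon-stimulated genes of the mouse, with earlier results of these data in view, and no threshold on a measured value chose them. The deposited table had a probe set for 39 of the 43, among 20672 probe sets in all. The authors kept the most variable probe set of each gene, and shares of all probe sets are over this table, not the whole array. Isg15, Ifi44, Oas1a and Oas1g had no probe set in it naming that gene alone and are not described further.

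The study placed full-thickness wounds on db/db mice, which lack a working leptin receptor and are obese and diabetic, and asked how IL-22-Fc, VEGF and PDGF change gene expression in the wound. RNA of the wound tissue was hybridised to 42 Affymetrix Mouse430V2 arrays in 9 groups. At 24 h after a single topical dose there were 5 wounds with IL-22-Fc (50 µg in the labels), 5 with VEGF (20 µg), 5 with PDGF (50 µg) and 4 with control protein. At day 7, after dosing every other day, there were 5 wounds with IL-22-Fc, 5 with VEGF (20 µg), 3 with PDGF (50 µg) and 5 with control protein. All wounded mice were db/db females. The labels give the strain as C57BL/6 and no age, whereas the methods name BKS.Cg-Dock7m Leprdb/+ +/J mice for db/db, aged 10 to 12 weeks. A ninth group of 5 arrays was untreated skin at day 0, labelled C57BL/6 with no statement of the db/db genotype. IL-22-Fc is IL-22 fused to an antibody Fc part, which lengthens its life. The labels call the control protein anti-ragweed and the methods call it control Fc, and the doses of VEGF and IL-22-Fc also differ between the labels, the design text and the methods. Replicate numbers are only names here, since the labels number no replicates, and nothing says whether the arrays of a group come from separate mice. The p-values therefore measure the spread between these samples, which may be technical.

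Type I interferons bind a receptor whose kinases phosphorylate STAT proteins. A complex that holds STAT2 and IRF9 then binds a promoter element, the ISRE, while interferon-gamma acts mostly on a different element, the GAS. The products sense foreign nucleic acid, block the copying and translation of viral RNA, attack the vacuoles of intracellular microbes and present antigen. In skin, plasmacytoid dendritic cells that enter the tissue after injury are a known source of type I interferon.

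Levels are log2 of the deposited intensity, and differences are on the same log2 scale, so a difference of 1 is a doubling. Array medians lay between 5.63 and 5.72. Averaged over the 42 arrays, the 39 genes ranged from the 8.92 percentile of all probe sets (Tap1) to the 97.4 percentile (Ifi35). The Tap1 probe set, at a mean of 3.05, was the dimmest of them. Some technical values stood apart. The 5' control probe set of Gapdh read 11.26 to 11.60 in the 3 PDGF wounds at day 7, against 12.82 to 12.99 in the 5 control wounds at day 7, and 11.14 in replicate 5 of the untreated skin. The epidermal keratin Krt5 averaged 13.21 in untreated skin and between 12.25 and 13.47 in the groups of wounds, as skin should show.

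The promoters of these genes were read from RefSeq (build GRCm38.p6) to show the elements by which an interferon reaches them. A window of 300 bases, 250 before and 50 after the transcription start, was listed for 32 of the 43 genes, of which 28 were measured. An ISRE core, the letters GAAA, any 2 bases and GAAA again on either strand (TTTC, 2 bases, TTTC when read from the other), stood in 19 of their 39 windows (48.7%), and in 3.44% of all 32851 windows. The GAS core TTCNNNGAA, which reads the same on both strands, stood in 10 of the 39 (25.6%), against 8.3% of all windows. A match is a string of letters and not a shown binding site. The first sequences were chosen for holding an ISRE core, among genes that rose in the wound at 24 h and GBP genes. Oasl2, Irf7, Oasl1 and Ifit2, which rose more than Oas3, hold none and are not printed. Each runs 5′ to 3′ on the gene's own strand from position -170 to -11 relative to the start, with ISRE core matches in capitals.

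Rsad2 (chr12:26456463-26456622, minus strand): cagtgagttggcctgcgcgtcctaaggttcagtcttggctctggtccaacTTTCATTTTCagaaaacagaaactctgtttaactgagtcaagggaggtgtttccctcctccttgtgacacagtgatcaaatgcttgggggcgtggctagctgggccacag
Ifit1 (chr19:34640719-34640878, plus strand): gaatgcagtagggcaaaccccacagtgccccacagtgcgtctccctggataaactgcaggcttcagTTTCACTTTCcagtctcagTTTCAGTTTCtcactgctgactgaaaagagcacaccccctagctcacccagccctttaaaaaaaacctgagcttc
Ifit3 (chr19:34583359-34583518, plus strand): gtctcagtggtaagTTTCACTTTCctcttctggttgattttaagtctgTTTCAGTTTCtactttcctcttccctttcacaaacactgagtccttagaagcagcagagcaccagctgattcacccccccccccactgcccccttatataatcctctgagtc
Oas3 (chr5:120777670-120777829, minus strand): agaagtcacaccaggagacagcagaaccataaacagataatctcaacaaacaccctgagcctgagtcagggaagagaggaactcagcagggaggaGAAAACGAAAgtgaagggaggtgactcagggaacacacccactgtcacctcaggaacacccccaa
Gbp2 (chr3:142620493-142620652, plus strand): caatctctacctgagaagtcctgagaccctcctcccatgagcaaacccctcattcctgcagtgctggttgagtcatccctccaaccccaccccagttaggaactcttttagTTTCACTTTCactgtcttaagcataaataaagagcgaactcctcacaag
Gbp3 (chr3:142559874-142560033, plus strand): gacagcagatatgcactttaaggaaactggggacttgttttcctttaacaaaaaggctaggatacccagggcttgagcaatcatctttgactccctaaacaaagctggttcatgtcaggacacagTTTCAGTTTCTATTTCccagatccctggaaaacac

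Ifit1 and Ifit3 each carried a pair of separate cores, while the 2 matches of Gbp3, at -45 and -39, overlap and run together as a single stretch of capitals. The next promoters hold a GAS core, in capitals at -75 in Irgm2 and at -90 in Irf1. Irgm2 also has an ISRE core at -64, capitalised too and separated from its GAS core by lower case letters.

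Irgm2 (chr11:58214807-58214966, plus strand): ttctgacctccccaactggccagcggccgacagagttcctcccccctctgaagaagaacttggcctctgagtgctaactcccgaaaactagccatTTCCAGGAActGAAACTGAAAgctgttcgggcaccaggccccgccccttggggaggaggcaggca
Irf1 (chr11:53769844-53770003, plus strand): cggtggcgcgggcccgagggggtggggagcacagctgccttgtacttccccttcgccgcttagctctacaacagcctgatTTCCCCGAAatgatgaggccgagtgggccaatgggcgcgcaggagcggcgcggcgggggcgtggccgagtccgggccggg

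The 15 measured genes with an ISRE core in the window differed by a median of 1.91 between control wounds at 24 h and untreated skin, with a range of 1.24 to 4.93. The 13 without one had a median of 1.70 and a range of 0.23 to 3.77, so the ranges overlapped widely. Irf7 and Oasl2, among the genes that rose most, had neither core in the window.

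Nearly the whole set was high at 24 h. Of the 39 genes, 37 were higher and 0 lower in control wounds at 24 h than in untreated skin at an adjusted p under 0.05 (limma, Benjamini-Hochberg over all probe sets), where 39.5% of all probe sets passed in either direction and 19.3% were higher. The median difference of the set was 1.91, beside 0.03 over all probe sets, and all 37 also passed a 1.5-fold limit, which 7.86% of all probe sets passed upward. In 29 of the 39 the lowest wound lay above the highest untreated array, as 21.4% of all probe sets did in either direction. The untreated arrays carry sample numbers of another range than the wounds, so wounding, genotype and any processing batch cannot be told apart in this comparison. The same holds for every comparison with untreated skin.

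**Figure D1:**
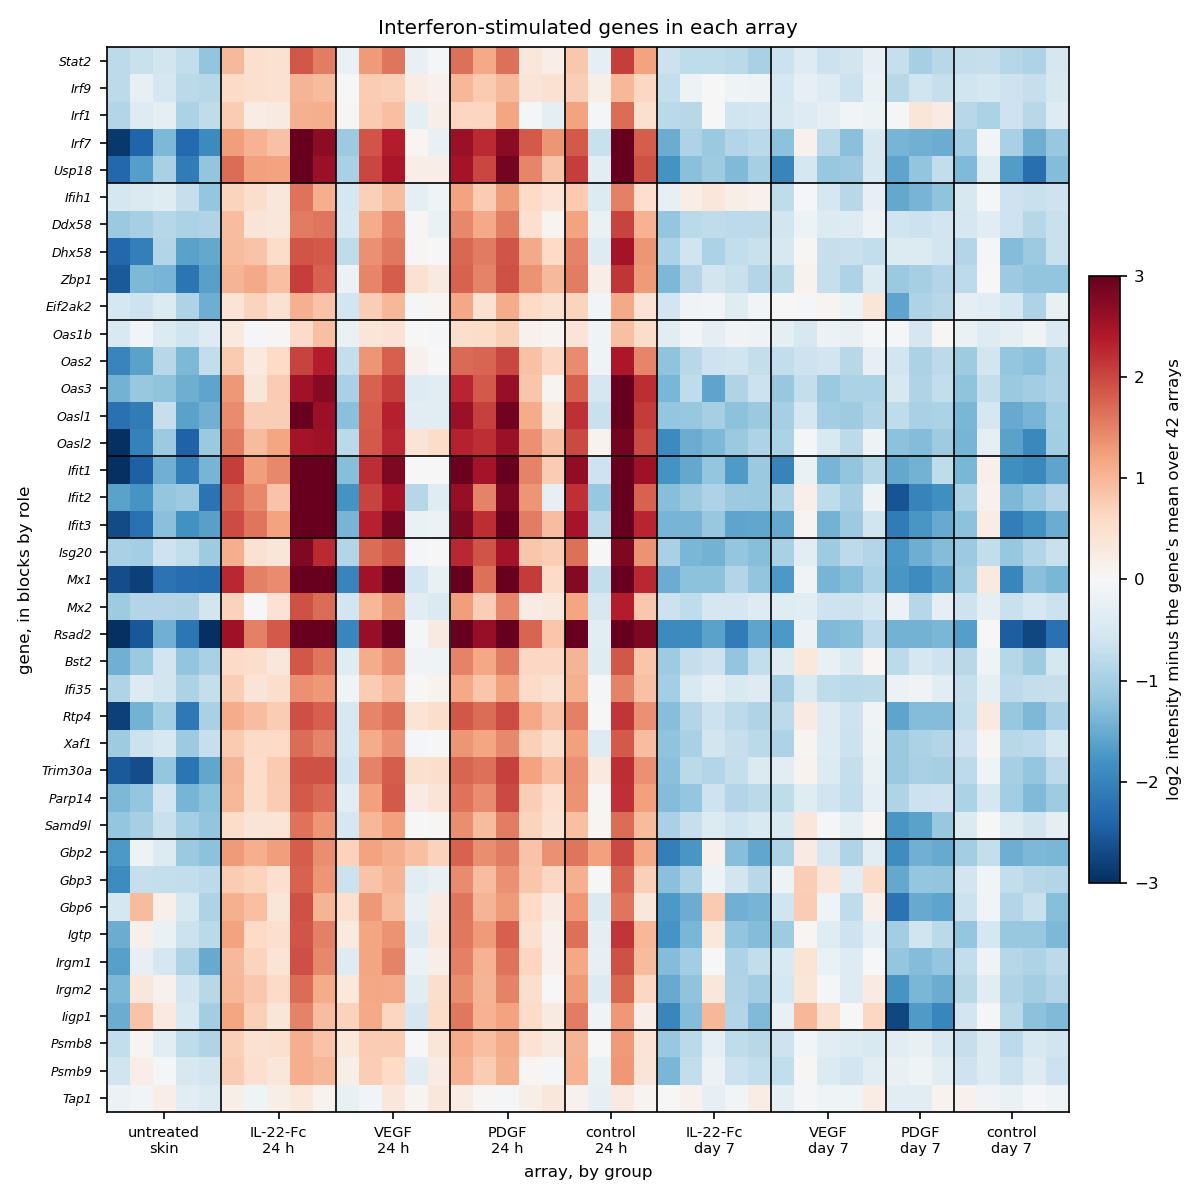
Level of each of the 39 interferon-stimulated genes (rows, in blocks by role) in each of the 42 arrays (columns, by group), as log2 intensity minus the gene's mean over all arrays, with red above and blue below that mean. The 24 h columns are mostly red and the untreated and day 7 columns mostly blue, with paler columns for control replicate 2 and for 3 VEGF wounds at 24 h.

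The largest single differences were those of antiviral effectors. Rsad2, which makes a nucleotide that ends viral RNA chains, had levels of 11.69, 8.25, 12.87 and 11.40 in the 4 control wounds at 24 h, against 5.36, 6.07, 7.16, 6.43 and 5.58 in the 5 untreated arrays. Every wound was above every untreated array, and replicate 2 was the lowest wound by far. The difference was 4.93 ± 0.77 (SE), or 30.5-fold (adjusted p = 2.7e-06, limma). Mx1, of a family of GTPases, had 9.72, 6.24, 11.30 and 9.23 in control wounds at 24 h and 4.31, 4.16, 4.77, 4.70 and 4.66 in untreated skin, a difference of 4.60 ± 0.74. The groups again did not overlap. All 11 measured genes of this block rose, with a median difference of 2.34, and the smallest was that of Ifi35 at 1.56. Trim30a, a TRIM protein that restrains inflammatory signalling, rose by 3.33 and Rtp4 by 2.94. Bst2, the tetherin that holds budding virions at the cell surface, rose by 1.91.

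The 3 IFIT genes, whose proteins bind viral RNA, rose together. Ifit1 had 11.11, 7.82, 12.29 and 11.00 in control wounds at 24 h, against 4.51, 6.00, 7.00, 6.38 and 7.06 in untreated skin. Ifit3 had 10.90, 7.63, 12.23 and 10.71 in those wounds, against 5.74, 6.18, 7.17, 6.62 and 6.81. Neither overlapped with untreated skin, and the differences were 4.36 ± 0.70 for Ifit1 and 3.86 ± 0.68 for Ifit3. Ifit2 rose by 3.18 but did overlap, because replicate 2 of the control wounds, at 7.40, lay below the highest untreated array, at 7.45.

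Of the OAS family, some of whose members make the short oligoadenylates that switch on RNase L, 5 of the 7 genes were measured and 5 of 5 rose. Oasl2 had 8.12 to 10.89 in the 4 control wounds at 24 h, with replicate 2 again the lowest, against 4.50, 6.01, 6.93, 5.60 and 6.92 in untreated skin, with no overlap and a difference of 3.77 ± 0.51. Oasl1, Oas3 and Oas2 rose by 3.36, 3.01 and 2.59, and Oas1b by 0.82. The close relatives in this family can share probes, so the split between them is uncertain.

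The sensors and the signalling factors rose in full, 5 of 5 in each block. Zbp1, which detects Z-form nucleic acid and can start necroptosis, had 9.23, 7.89, 9.82 and 8.97 in control wounds at 24 h and 5.16, 6.34, 6.29, 5.50 and 6.06 in untreated skin. It did not overlap and differed by 3.11 ± 0.34. The RNA helicases Dhx58, Ddx58 (RIG-I) and Ifih1 (MDA5) rose by 2.92, 1.99 and 1.24, and Eif2ak2, the kinase PKR that halts translation, by 1.33. Irf7, the factor that amplifies type I interferon transcription, had 10.78, 8.29, 12.19 and 10.77 in the wounds, against 6.05, 6.54, 7.59, 6.60 and 7.03 in untreated skin, a difference of 3.74 ± 0.56. Usp18, a brake on the type I receptor, rose by 3.38. Stat2 and Irf9, partners in the ISRE-binding complex, rose by 1.73 and 1.27, and Irf1 by 1.49.

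The genes that did not pass lay among the GTPases and the antigen processing genes. Of the 7 interferon-induced GTPases, some of which coat and break microbe-holding vacuoles, 6 rose, from Iigp1 at 1.10 (adjusted p = 0.047) to Gbp2 at 2.41. Gbp6 had 7.97, 6.24, 8.29 and 7.01 in control wounds at 24 h and 6.14, 7.62, 6.83, 6.20 and 5.76 in untreated skin. The groups overlapped, and the difference of 0.87 ± 0.43 did not pass (adjusted p = 0.11). Psmb8 and Psmb9, catalytic subunits of the immunoproteasome, rose by 1.21 and 0.93. Tap1, the peptide transporter, differed by 0.23 (adjusted p = 0.17) on its dim probe set, with levels of 2.80 to 3.32 in the wounds and 2.63 to 3.24 in untreated skin.

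Most of the set was also high at 24 h in the wounds treated with a protein. Against untreated skin, 38 of 39 genes were higher in IL-22-Fc wounds, 35 in VEGF wounds and 39 in PDGF wounds, with medians of 2.04, 1.41 and 2.00. None was lower. Of all probe sets 37.8%, 34.5% and 48.2% passed in those comparisons, and 18.9%, 17.4% and 24.6% were higher. The 4 comparisons with untreated skin share the same 5 untreated arrays.

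**Figure D2:**
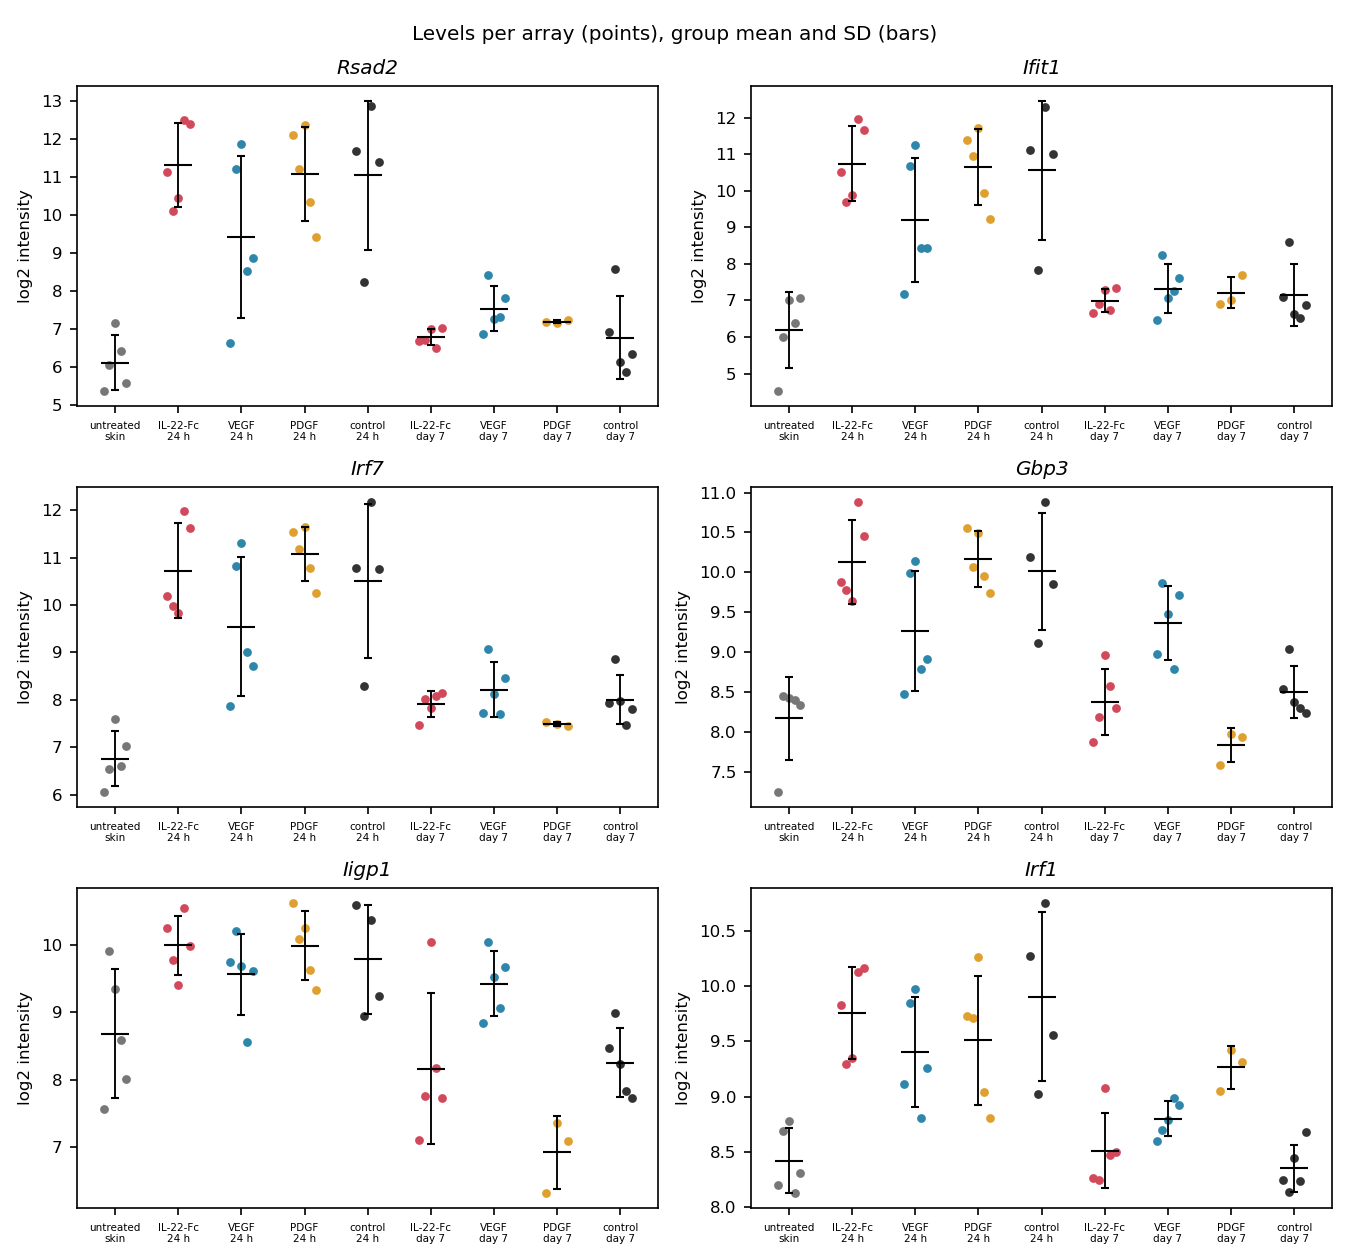
Log2 intensity of Rsad2, Ifit1, Irf7, Gbp3, Iigp1 and Irf1 in every array (points), with the group mean and SD (bars), from untreated skin at the left through 24 h to day 7. Rsad2 reached 12.87 in a control wound at 24 h and was at most 8.60 at day 7, while Gbp3, Iigp1 and Irf1 differed less between times and more between treatments at day 7.

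The arrays within a 24 h group differed strongly, and the genes differed together. The mean level of the 39 genes was 9.62, 7.96, 10.41 and 9.36 in the 4 control wounds at 24 h. Replicate 3 was the highest of the 4 for 38 of the 39 genes and replicate 2 the lowest for 38. Replicate 2 also stood apart in the 5' control probe sets. That of Gapdh read 13.27 in it, against 12.38, 12.41 and 12.21 in replicates 1, 3 and 4. That of Actb read 13.76, against 13.16, 13.23 and 13.31. Whether this technical difference has a part in its low levels was not tested. In the VEGF wounds at 24 h the means were 7.67, 9.49, 9.74, 8.12 and 8.28, so that 2 wounds were near the control wounds and 3 were well below most of them. The means ran from 8.84 to 10.21 in IL-22-Fc wounds and from 8.66 to 10.03 in PDGF wounds at 24 h. At day 7 the groups were tighter, with SDs of the mean of 0.25, 0.31, 0.11 and 0.33 for IL-22-Fc, VEGF, PDGF and control wounds, against 0.63, 0.90, 0.58 and 1.02 at 24 h. Without control replicate 2 the median difference between control wounds at 24 h and untreated skin was 2.31 (38 genes called), and without replicate 3 it was 1.64 (35 genes called).

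**Figure D3:**
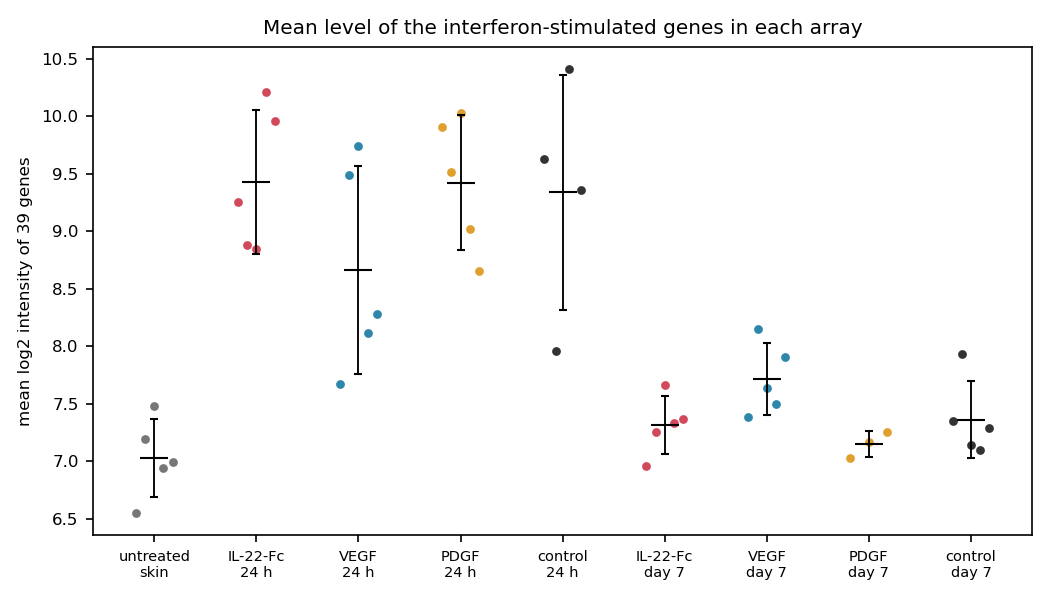
Mean log2 intensity of the 39 genes in every array (points), with the mean and SD of each group (bars). All 5 untreated arrays lie between 6.55 and 7.48, the 24 h wounds spread from 7.67 to 10.41, and the day 7 wounds lie between 6.96 and 8.15.

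By day 7 the set had come down. In control wounds, 38 of 39 genes were lower and 0 higher at day 7 than at 24 h, where 30.1% of all probe sets passed and 16% were lower. The median difference was -1.69, with 39 of 39 differences negative, and the groups did not overlap for 21 of the 39 (24.8% of all probe sets). Rsad2 fell most, to 6.94, 8.60, 6.12, 5.88 and 6.35 in control wounds at day 7, a difference of -4.28 ± 0.77. Replicate 2 at day 7, at 8.60, lay above replicate 2 at 24 h, at 8.25, so these groups overlap although their means are far apart. The differences were -3.21 for Mx1, -3.42 for Ifit1 and -3.11 for Usp18. Likewise 38 of 39 were lower in IL-22-Fc wounds, 37 in PDGF wounds and 22 in VEGF wounds, each against its own 24 h group, with 28%, 37.3% and 37.2% of all probe sets called and 15.1%, 17.5% and 21.5% lower. Leaving out VEGF replicate 2 or 3 at 24 h took the VEGF count to 7, and leaving out replicate 1 or 4 at day 7 took it to 11 or 14.

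Against untreated skin, 3 of the 39 genes were still higher in control wounds at day 7, where 36.8% of all probe sets passed and 18.2% were higher. Trim30a had 7.86, 8.52, 7.66, 7.48 and 7.86 in control wounds at day 7 and 6.13, 5.99, 7.49, 6.46 and 7.09 in untreated skin, a difference of 1.24 ± 0.34 (adjusted p = 0.004, limma), with a small overlap. Zbp1 had 6.89, 7.68, 6.58, 6.49 and 6.50 in control wounds and differed by 0.96 ± 0.32. Samd9l, a restrictor of viral translation, had 8.72, 9.18, 8.81, 8.62 and 8.89 in control wounds and 8.01, 8.17, 8.49, 8.16 and 7.98 in untreated skin, a difference of 0.68 ± 0.27. Neither of these overlapped, and 4 of the 39 had no overlap in all (18.2% of all probe sets). The other 36 did not pass, with differences between -0.54 and 1.39. The count of 3 became 1 without control replicate 2 or without untreated replicate 1, and 6 without untreated replicate 3.

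No gene of the set passed a test between a treatment and control at 24 h. The count was 0 for IL-22-Fc, 0 for VEGF and 0 for PDGF (limma), where 0.111%, 0.135% and 1.89% of all probe sets passed. At an unadjusted p under 0.05 it was 0, 1 and 0, both in limma and in a Student's t-test. That t-test gave 0 in each after Benjamini-Hochberg. In VEGF wounds the differences were negative for 38 of 39 genes, with a median of -0.55, but the median SE of a gene was 0.43. Rsad2 shows the spread behind this, with 6.64, 11.22, 11.87, 8.53 and 8.87 in VEGF wounds at 24 h and a difference from control of -1.62, with a 95% interval from -3.66 to 0.41. The gene with p under 0.05 was Gbp2, with 9.84, 10.34, 10.22, 10.04 and 9.83 in VEGF wounds and 10.74, 10.36, 11.12 and 10.27 in control wounds at 24 h. It differed by -0.57 (95% interval -0.96 to -0.17, adjusted p = 0.37). Without control replicate 3 the VEGF median was -0.28, and without control replicate 2 it was -0.92. For IL-22-Fc the differences lay between -0.15 and 0.54 and for PDGF between -0.39 and 0.57. In the treatment pairs at 24 h the counts were also 0 (limma), with 4 at an unadjusted p under 0.05 for IL-22-Fc against VEGF, 0 for IL-22-Fc against PDGF and 4 for VEGF against PDGF, where 0.687%, 7.49% and 9.15% of all probe sets passed.

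At day 7 the share of the 39 genes called against control was 2.56% for IL-22-Fc, 15.4% for VEGF and 25.6% for PDGF. Each was near or below the share of all probe sets called in either direction, given with the counts that follow. The VEGF calls were all higher, however, and 5.96% of all probe sets were higher there. IL-22-Fc changed 1 gene of the 39 against control wounds, where 5.45% of all probe sets passed and 2.81% were higher. This was Ifih1, the sensor of long double-stranded RNA, with 9.07, 9.53, 9.66, 9.49 and 9.45 in IL-22-Fc wounds and 8.85, 9.27, 8.70, 8.65 and 8.69 in control wounds. The groups overlapped by 1 wound on each side. The difference was 0.61 ± 0.15 (adjusted p = 0.018, limma), and the count was 0 without IL-22-Fc replicate 3 or without control replicate 4, and 2 without IL-22-Fc replicate 1. The median over the set was -0.07, with 13 positive and 26 negative differences, and all 39 lay between -0.34 and 0.61. The neutrophil markers summed to between 15.33 and 15.43 in IL-22-Fc wounds and between 13.78 and 14.62 in control wounds at day 7, with 3 of 7 called higher. Those 3 were S100a8 and S100a9, which keratinocytes also make, and Cxcr2, so the sum is not a measure of neutrophils alone, and its part in the Ifih1 difference was not tested. T and NK cell markers were lower in 2 of 11, with sums of 8.71 to 8.87 in IL-22-Fc and 8.99 to 9.08 in control wounds. Keratinocyte markers were higher in 2 of 9 and lower in 4. Adipocyte markers were lower in 1 of 4 and plasmacytoid dendritic cell markers in 1 of 7. The part of these was not tested either.

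**Figure D4:**
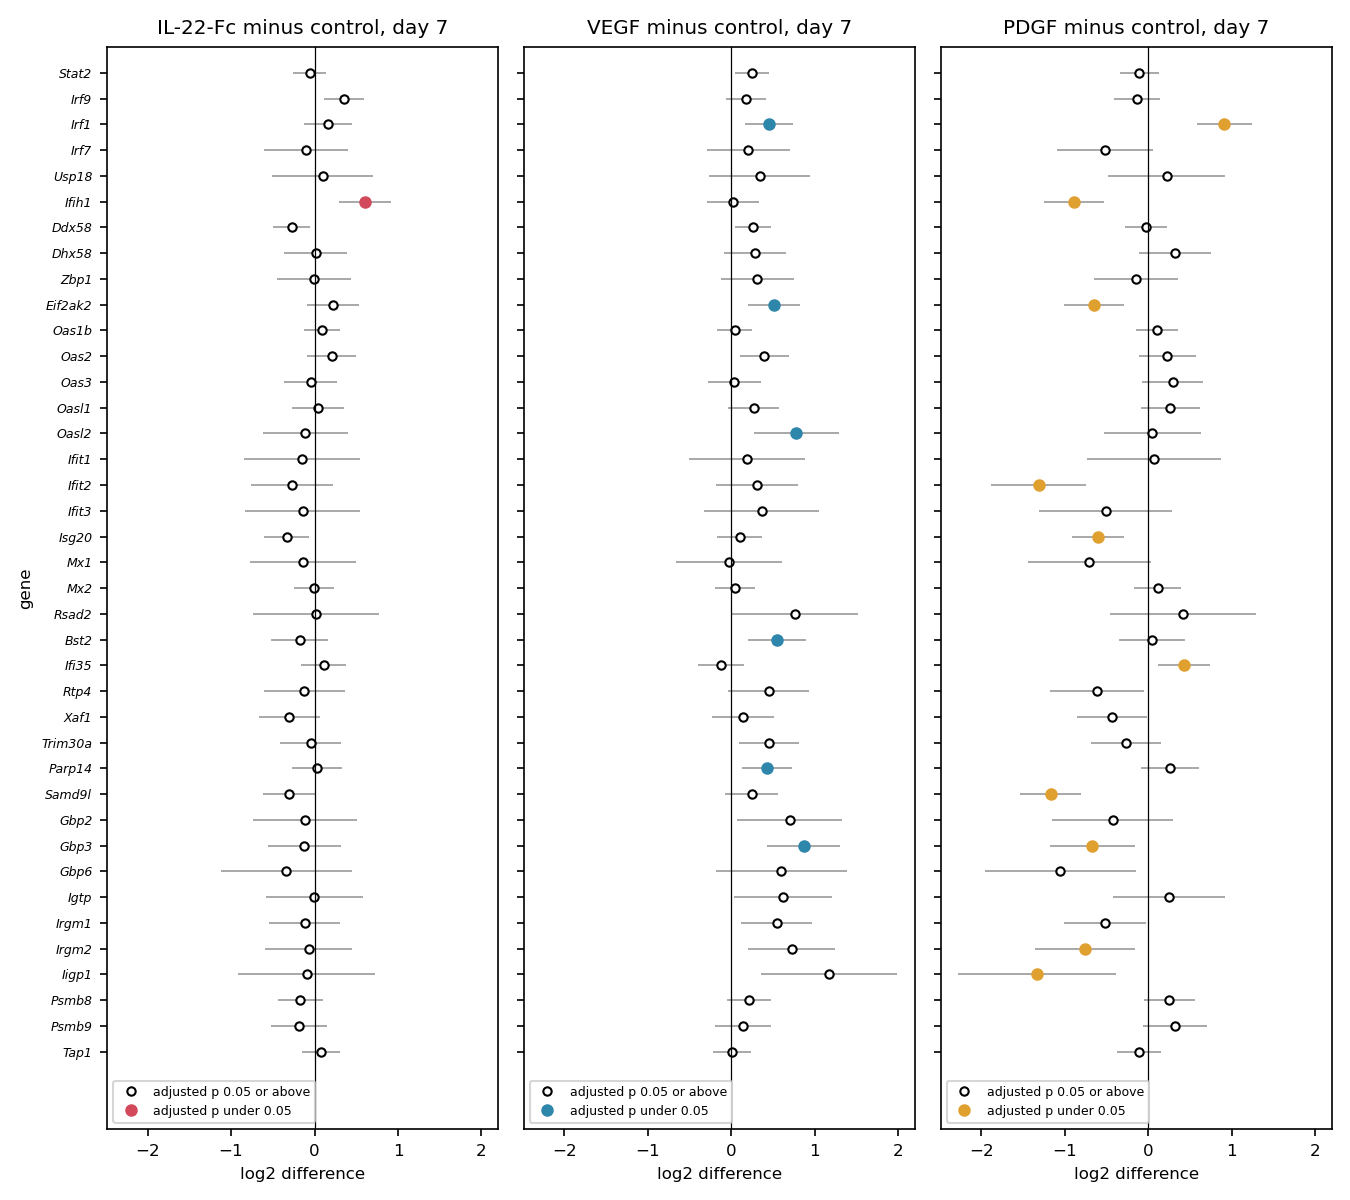
Log2 difference from control wounds at day 7 for each of the 39 genes (rows) in IL-22-Fc, VEGF and PDGF wounds, with 95% intervals from limma and filled points for an adjusted p under 0.05. Called genes number 1 for IL-22-Fc, 6 for VEGF, all to the right of 0, and 10 for PDGF, with 8 of them to the left.

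VEGF wounds were higher in 6 genes and lower in 0 at day 7, where 14.7% of all probe sets passed and 5.96% were higher. The difference was positive for 37 of the 39 genes, with a median of 0.31. Gbp3, a guanylate-binding protein, had 8.97, 9.86, 9.48, 8.79 and 9.71 in VEGF wounds and 8.54, 9.04, 8.38, 8.30 and 8.24 in control wounds. The highest control wound lay above the lowest VEGF wound, and the difference was 0.87 ± 0.21 (adjusted p = 0.0069, limma). Oasl2 had 7.08, 8.00, 7.56, 7.23 and 7.87 in VEGF wounds and 6.63, 7.72, 6.42, 6.08 and 6.99 in control wounds, a difference of 0.78 ± 0.24. These 2 were the genes past 1.5-fold, as 1.96% of all probe sets were upward.

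The other 4 called genes differed by less. Bst2 had 8.10, 8.81, 8.26, 8.07 and 8.55 in VEGF wounds, against 7.66, 8.37, 7.65, 7.42 and 7.96 in control wounds, a difference of 0.55. Eif2ak2 had 7.21, 7.18, 7.31, 7.07 and 7.58 in VEGF wounds and 6.93, 6.87, 6.70, 6.30 and 6.99 in control wounds. It was the 1 gene of the set with no overlap between these groups (10.5% of all probe sets had none). Irf1, a transcription factor that both interferon types induce, differed by 0.45, and Parp14, an ADP-ribosyltransferase, by 0.43 (adjusted p = 0.048). All 7 GTPases had a positive difference, of 0.55 to 1.17, but of these only Gbp3 passed. Iigp1 was the nearest, with 8.84, 10.04, 9.52, 9.06 and 9.66 in VEGF wounds and 8.47, 8.99, 8.24, 7.83 and 7.74 in control wounds, a difference of 1.17 ± 0.39 (adjusted p = 0.051).

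Single wounds weighed on this count. Control replicate 2 was the highest of the 5 control wounds for 31 of the 39 genes, and without it 15 genes were called in place of 6. Without VEGF replicate 2, 3 or 5 the count was 3, 2 or 1, and without control replicate 1, 3 or 4 it was 2, 2 or 1. A Student's t-test had 13 at an unadjusted p under 0.05 and 0 after Benjamini-Hochberg. A fit over all 42 arrays also gave 0, but it takes its spread in part from the 24 h groups, which varied more. Cell type markers moved in the same wounds, where 14.7% of all probe sets passed and 5.96% were higher. All 5 endothelial markers were higher, summing to between 10.48 and 11.05 in VEGF wounds and between 8.93 and 9.11 in control wounds. Macrophage and monocyte markers were higher in 5 of 11, with sums of 15.14 to 15.26 in VEGF and 14.77 to 14.99 in control wounds, and keratinocyte markers lower in 8 of 9, with sums of 15.16 to 15.36 and 15.71 to 15.94. Plasmacytoid dendritic cell markers were lower in 3 of 7, with sums of 11.47 to 11.99 in VEGF and 12.16 to 12.65 in control wounds, and adipocyte markers lower in 3 of 4, with sums of 10.67 to 11.45 and 11.82 to 12.32. Lower sums of keratinocyte and adipocyte markers were not particular to VEGF. At day 7 the keratinocyte sums were 15.31 to 15.50 in IL-22-Fc and 15.55 to 15.70 in PDGF wounds. The adipocyte sums were 11.02 to 11.72 in IL-22-Fc and 10.20 to 11.19 in PDGF wounds. Whether the plasmacytoid list is particular to those cells in skin was not tested. The part of these cell types in the differences was not tested either. In whole tissue, fewer cells of a type and less RNA per cell cannot be told apart.

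PDGF wounds were higher in 2 genes and lower in 8 at day 7, where 34.9% of all probe sets passed, 18.9% higher and 16% lower. Samd9l had 7.43, 7.56 and 8.04 in the 3 PDGF wounds, all below the 5 control wounds at 8.62 to 9.18, with a difference of -1.17 ± 0.17 (adjusted p = 2.1e-05, limma). Ifit2 had 5.95, 6.53 and 6.69 in PDGF wounds and 7.60, 8.65, 7.19, 7.41 and 7.65 in control wounds, a difference of -1.31 ± 0.27, and Ifih1 had 7.79, 7.93 and 8.11 in PDGF wounds, against 8.65 to 9.27 in control wounds. No PDGF wound reached a control wound in any of the 3 genes.

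Of the 7 GTPases 3 were lower, and the other 4 did not pass, with differences from -1.05 (Gbp6) to 0.25 (Igtp). Iigp1, a GTPase that attacks parasite vacuoles, had 6.32, 7.36 and 7.10 in PDGF wounds and fell by 1.33 (adjusted p = 0.027) relative to control wounds, while Irgm2 and Gbp3 fell by 0.76 and 0.67. Isg20, an RNA exonuclease, had 6.04, 6.30 and 6.45 in PDGF wounds and 6.68, 7.02, 6.63, 6.90 and 7.09 in control wounds, and fell by 0.60. Eif2ak2 fell by 0.65 with 1 overlap, PDGF replicate 3 at 6.39 against control replicate 4 at 6.30. The genes that rose were Irf1, with 9.05, 9.43 and 9.31 in PDGF wounds and 8.25, 8.13, 8.45, 8.24 and 8.68 in control wounds (0.92 ± 0.16, adjusted p = 0.00013), and Ifi35, by 0.43. The 5 OAS genes had differences of 0.05 to 0.30, none of which passed. PDGF and control wounds did not overlap for 12 of the 39 genes, beside 35.4% of all probe sets.

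These are also the wounds with low 5' control levels. With the 5' control level as a covariate the count was 0 in place of 10, the median SE of the 10 genes was 0.54 in place of 0.17, and Ifi35 and Isg20 changed sign. The median difference of the 39 was -0.63 under the covariate and -0.11 without it. PDGF and the 5' level lie so close together here that their parts cannot be told apart. Without PDGF replicate 1 the count was 5, and without control replicate 1 it was 6. Fibroblast markers were lower in 4 of 6 and higher in 1, with sums of 13.80 to 14.55 in PDGF and 14.97 to 15.47 in control wounds. T and NK cell markers were higher in 5 of 11, with sums of 9.44 to 9.64 and 8.99 to 9.08, and their part was not tested.

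Set against PDGF wounds at day 7, VEGF wounds stood apart in 20 of the 39, with 18 higher and 2 lower, where 39.7% of all probe sets passed, 17% higher and 22.7% lower. Iigp1 differed by 2.50 ± 0.45, the most of the 39, with every VEGF wound (8.84 to 10.04) above every PDGF wound (6.32 to 7.36). Of the GTPases 6 of 7 were higher in VEGF wounds, Gbp6 by 1.65, Gbp3 by 1.53, Irgm2 by 1.48, Gbp2 by 1.12 and Irgm1 by 1.07. Ifit2 was higher by 1.62 and Samd9l by 1.41, whereas Irf1 and Ifi35 were lower, with differences of -0.47 and -0.56. IL-22-Fc wounds differed from VEGF wounds in 13 genes, 1 higher (Ifih1, 0.59) and 12 lower, where 22.9% of all probe sets passed, 12.1% higher and 10.8% lower, with the lowest values for Iigp1 (-1.26) and Gbp3 (-0.99). That count was 7 without IL-22-Fc replicate 2 and 6 without VEGF replicate 2. IL-22-Fc and PDGF wounds differed in 9 genes, 6 higher and 3 lower in IL-22-Fc wounds (38.1% of all probe sets, 17% higher and 21.1% lower), with Ifih1 2.82-fold higher. The 3 PDGF wounds carry the low 5' level in both of their pairs, and with that level as a covariate both counts were 0. The median difference was then 1.12 in place of 0.46 for VEGF against PDGF, and 0.71 in place of 0.13 for IL-22-Fc against PDGF. The pairs share wounds with one another and with the comparisons against control.

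Whether a treatment's difference from control changed between the times was tested directly. For IL-22-Fc 0 genes passed (limma; 0 also at an unadjusted p under 0.05; 1.69% of all probe sets). For VEGF 2 passed, where 8.85% of all probe sets did and 2.57% were higher. The VEGF difference in Gbp3 was higher at day 7 than at 24 h by 1.61 ± 0.44 (adjusted p = 0.014), being 0.87 at day 7 and -0.75 at 24 h, and that in Gbp2 was higher by 1.27 (adjusted p = 0.031). Across the set 38 of the 39 changes were positive, with a median of 1.01. The VEGF count was 14 without control replicate 2 at 24 h, 0 without control replicate 3 at 24 h, 4 without VEGF replicate 3 at 24 h, and 1 without any of VEGF replicates 2 and 5 or control replicates 3 and 4 at day 7, VEGF replicates 1 and 5 or control replicate 1 at 24 h. For PDGF 3 passed, where 32.3% of all probe sets did, 18.1% higher and 14.3% lower. These were Irf1, higher by 1.31 (adjusted p = 0.012), and Samd9l and Ifih1, lower, with changes of -1.28 and -1.14. The PDGF count was 0 with the 5' level as a covariate (median change -1.60, against -0.20 without it), 1 without PDGF replicate 1 at day 7 or control replicate 2 at 24 h, and 5 without control replicate 4 at day 7, PDGF replicate 5 at 24 h or control replicate 3 at 24 h.

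The genes around the set were read from lists by role. Among the interferons, 1 of 10 measured was higher in control wounds at 24 h than in untreated skin and 0 lower. Of all probe sets 19.3% were higher there. The 1 interferon called was Ifnb1, interferon-beta, with 4.82, 4.24, 5.55 and 4.56 in control wounds at 24 h and 3.97, 4.40, 4.01, 3.94 and 4.33 in untreated skin. Replicate 3, the wound highest in the target genes, was also highest here, and replicate 2, the lowest, lay within the untreated range. The T and NK cell marker sums of these 4 wounds, at 9.50, 8.82, 9.86 and 9.30, had the same highest and lowest replicates. So did the macrophage and monocyte, dendritic and Langerhans cell, endothelial, fibroblast and keratinocyte sums, so this order is not particular to T and NK cells. Neutrophil sums ran the other way, at 14.81, 15.18, 14.58 and 14.69. The B cell, plasmacytoid dendritic cell and adipocyte sums had another order. A link of Ifnb1 with the target genes was not tested. The difference in Ifnb1 was 0.66 (adjusted p = 0.008, limma). Ifng, interferon-gamma, had 2.90 to 3.30 in these wounds and 2.59 to 2.94 in untreated skin (difference 0.28, adjusted p = 0.071). Group means of the 10 ranged from 2.73 (Ifna11) to 6.71 (Ifnz). Of these, 3 were higher in control wounds at day 7 than in untreated skin, where 18.2% of all probe sets were higher.

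Of the receptors, kinases, STATs and their inhibitors, 11 of 15 were higher and 1 lower in control wounds at 24 h. In that comparison with untreated skin 39.5% of all probe sets passed and 19.3% were higher. Socs3 and Socs1, inhibitors of cytokine receptors, rose by 3.34 and 1.39, the receptor chains Ifnar2 and Ifnar1 by 1.28 and 1.08, and Stat3 by 1.23, while Pias1 fell by 0.48. Of the genes upstream of interferon, 12 of 14 rose and 1 fell, with Myd88, the adaptor of Toll-like receptors, up by 2.13 and Mavs, the adaptor of RIG-I, down (-0.33).

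Further targets behaved much as the 39. The share of all probe sets higher in control wounds at 24 h than in untreated skin was again 19.3%. Among 44 further type I targets 40 rose and 1 fell at 24 h, led by Slfn4, a gene also abundant in myeloid cells, at 11.78 to 13.52 in control wounds and 3.92 to 5.07 in untreated skin, a difference of 8.16. Ms4a4c and Slfn1 rose by 6.64 and 5.69. Among 23 interferon-gamma and antigen presentation targets 16 rose and 0 fell. Cxcl10, a chemokine for T cells, had 11.48, 8.17, 12.77 and 11.29 in control wounds at 24 h, in the order of the wounds seen for Rsad2, and 4.10 to 6.55 in untreated skin, a difference of 5.50. At day 7 against 24 h, 36 of the 44 and 17 of the 23 fell in control wounds, where 16% of all probe sets were lower. In either list 0 rose. Slfn4 was still higher by 3.40 in control wounds at day 7 than in untreated skin.

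**Figure D5:**
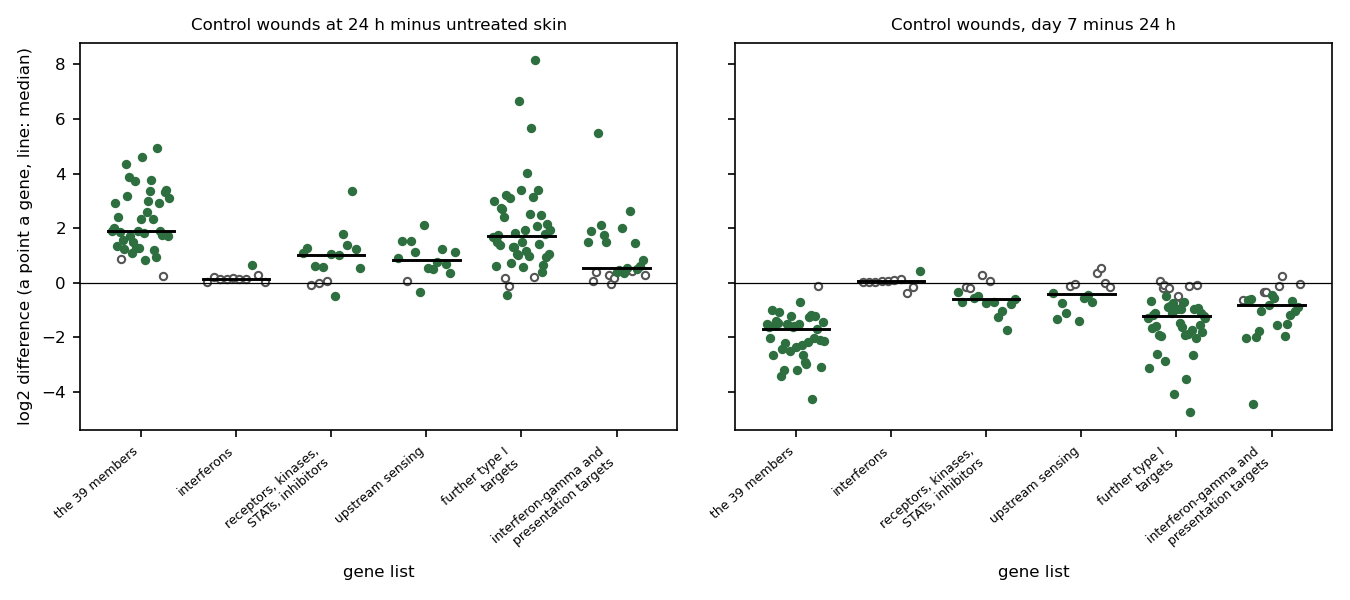
Log2 difference of every measured gene (points; filled for an adjusted p under 0.05) in the 39 members and in 5 lists of the pathway, with the median of each list (line), for control wounds at 24 h minus untreated skin and for day 7 minus 24 h. The members and the further type I targets sit above 0 at the left and below 0 at the right, with medians of 1.91 and 1.71 and of -1.69 and -1.22, while the 10 interferons stay between -0.38 and 0.66.

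The same lists were read at day 7 against control wounds. In VEGF wounds 10 of 44 further type I targets were higher and 0 lower than in control wounds, among them Ddx60 (0.94) and Plac8 (0.80), and 6 of 23 interferon-gamma and presentation targets were higher, among them Gbp8 (1.12) and Gbp7 (0.90), with Ubd lower, where 5.96% of all probe sets were higher. In PDGF wounds 8 of the 44 were higher and 9 lower, with Ddx60 at -1.92 and Ifi27l2a at -1.47, and 8 of the 23 were higher and 1 lower, led by H2-Ab1 (1.31), Ifi30 (1.17) and Cd74 (1.07), all of the class II presentation path. Of all probe sets 18.9% were higher and 16% lower there. Of the 15 receptor and signalling genes, 4 were higher and 1 lower in VEGF wounds, and 7 higher and 1 lower in PDGF wounds. Of the 14 upstream genes, 3 were higher and 0 lower in VEGF wounds, and 7 higher and 2 lower in PDGF wounds. Of the 10 interferons 0 were called in VEGF wounds and 1 was higher in PDGF wounds. Of all probe sets 14.7% passed for VEGF and 34.9% for PDGF. Dendritic and Langerhans cell markers were higher in 3 of 6 in the PDGF wounds, with sums of 9.53 to 9.91 in PDGF and 8.62 to 9.23 in control wounds. Macrophage and monocyte markers were higher in 6 of 11 and lower in 1, with sums of 15.05 to 15.10 and 14.77 to 14.99, and the part of either was not tested. In IL-22-Fc wounds 0 of the 44 were higher and 1 lower, and Socs1, Stat3 and Ifngr1 were the 3 of 15 receptor and signalling genes that rose, Stat3 by 0.49. Of the 23 interferon-gamma and presentation targets 1 was higher, of the 14 upstream genes 2 were higher, and of the 10 interferons 0 were called. Of all probe sets 5.45% passed there and 2.81% were higher.

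Marker RNA of several cell types differed along with the 24 h change, where 39.5% of all probe sets passed and 19.3% were higher. Neutrophil markers were higher in 7 of 7 in control wounds at 24 h than in untreated skin, with sums of 14.58 to 15.18 and 10.10 to 11.05, and S100a9 was higher by 7.17. Macrophage and monocyte markers were higher in 7 of 11, with sums of 14.14 to 14.60 and 12.55 to 14.33, and keratinocyte markers lower in 7 of 9, with sums of 15.36 to 15.60 and 15.70 to 16.09. All 4 adipocyte markers were lower, with sums of 12.22 to 12.81 and 12.15 to 14.29. Plasmacytoid dendritic cell markers were higher in 0 of 7 and lower in 2, with sums of 11.97 to 12.16 and 11.96 to 12.47. Whether this list is particular to those cells in skin was not tested, so it does not show whether they entered the wound. At day 7 the neutrophil sum was 13.78 to 14.62 in control wounds, with 4 of 7 markers lower than at 24 h (16% of all probe sets). No marker probe set was at 0, the lowest intensity of any probe set being 3.85. The part of these cells in the change of the 39 genes was not tested.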

How the data were processed

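Wound skin RNA was hybridised to Affymetrix Mouse430V2 arrays. The authors normalized probe set intensities by RMA in R and kept the most variable probe set of each mouse Entrez gene. They tested differences between arrays with limma and Benjamini-Hochberg adjustment, and used Student's t-test for other data and single genes in figures. The deposited values are RMA intensities on a linear scale (lowest 3.85, median 50.8), and no versions or genome build were given in the sources used here. Log2 was taken with no offset. Of 20672 probe sets, 17928 had 1 gene symbol in the platform annotation, 79 several and 2665 none; genes were named only from probe sets with 1 symbol. Of the 39 measured members, 13 have a probe set marked as shared between transcripts or related genes.

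Linear models were fitted with limma 3.58.1 (R 4.3.3; lmFit, eBayes), with Benjamini-Hochberg adjustment over all probe sets. Treatments were compared within the 18 arrays of day 7 or the 19 of 24 h, without covariates. The 42 arrays were fitted together for contrasts with untreated skin and between times, and the 37 wound arrays for changes of an effect. The limits were an adjusted p under 0.05 and, beside it, 1.5-fold. The script was tested on simulated data.

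Members are all accounted for by role. Values in every array are given for members with the largest difference in a called contrast and for up to 3 that did not pass, and in each other list the called genes with the largest changes are named. The members and all lists were chosen with earlier results of these data known. Marker sums are log2 of the summed intensity of a list. Alternatives were quantile normalization, 32 added before log2, the 50% of probe sets with the lowest interquartile range left out, array weights, the mean of the Gapdh and Actb 5' control probe sets as a covariate, another set of arrays in the fit, a Student's t-test over all probe sets, and leaving out each array. Comparisons of treated wounds with untreated skin and with their own 24 h group were added after seeing the data. The number of arrays limits the precision.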

Additional observations from a re-analysis of the deposited data

Results flagged for a closer look

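Of 192 groups of 4 to 5 arrays tested for a value far from the rest, 6 stood out, and chance marks about 1 in 20 groups. Gbp3 read 7.24 in untreated replicate 1, the next value being 8.34, and Parp14 read 7.88 in untreated replicate 3, the next being 7.30. Gbp6 read 7.47 in IL-22-Fc replicate 3 at day 7, with the next at 5.29, and Ifi35 read 9.60 in IL-22-Fc replicate 1 at day 7, with the next at 10.16. Control replicate 2 at day 7 was high in Ifit1 (8.60, next 7.09) and in Ifi35 (10.36, next 9.94).

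For 5 genes the difference from control changed between 24 h and day 7 by the limma test of that change. With VEGF, Gbp3 was higher by 1.61 (adjusted p = 0.014) and Gbp2 by 1.27 (adjusted p = 0.031) at day 7. With PDGF, Irf1 was higher by 1.31 (adjusted p = 0.012), while Ifih1 changed by -1.14 (adjusted p = 0.038) and Samd9l by -1.28 (adjusted p = 0.024).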

How the results depend on the processing

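No paired analysis was possible because the labels number no replicates. Of 150 counts of called genes under the alternatives other than leaving out an array, 129 stayed within 1.5 times the reported count and 21 did not, and of 5445 single gene values 5029 kept their direction and call, 411 kept only their direction and 5 turned. With array weights the count at day 7 was 2 for IL-22-Fc and 11 for VEGF against control, 3 for VEGF against PDGF at 24 h, 5 for control at day 7 against untreated skin, and 8 for the change of the VEGF effect. With all 42 arrays in 1 fit, which also takes in the wider spread of the 24 h groups, the day 7 counts were 0 for IL-22-Fc, 0 for VEGF and 4 for PDGF against control, 3 for IL-22-Fc against VEGF and 10 for VEGF against PDGF. The Student's t-test after adjustment gave 0 for IL-22-Fc and 0 for VEGF. With the 5' covariate the counts were 0 for PDGF against control, for IL-22-Fc against PDGF, for VEGF against PDGF and for the change of the PDGF effect, and 5 for control at day 7 against untreated skin. Under it Isg20 (0.0109) and Ifi35 (-0.26) turned for PDGF against control, Psmb8 (0.0910) and Psmb9 (0.50) for IL-22-Fc against PDGF, and Ifi35 (0.23) for VEGF against PDGF; the larger SEs given in the report go with this setting. Control at day 7 against untreated skin gave 1 with 32 added, 6 with the least variable 50% of probe sets left out, and 8 with only those groups in the fit, and the change of the PDGF effect gave 5 with the same left out. For these changes the cause was not tested. Leaving out 1 array gave counts at day 7 of 0 to 2 for IL-22-Fc, 1 to 15 for VEGF and 5 to 10 for PDGF against control, 6 to 17 for IL-22-Fc against VEGF, 6 to 9 for IL-22-Fc against PDGF and 14 to 21 for VEGF against PDGF. It gave 0 to 1 for VEGF against PDGF at 24 h (1 without VEGF replicate 3 or PDGF replicate 4), 35 to 38 for control at 24 h against untreated skin, 1 to 6 for control at day 7 against untreated skin, 36 to 38 for control at day 7 against 24 h, 7 to 27 for VEGF at day 7 against 24 h, 0 to 14 for the change of the VEGF effect and 1 to 5 for that of PDGF. Spread between arrays limits the 24 h comparisons, and low signal limits Tap1 and most interferons.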
